A study of Mus musculus with 7 samples.

Results

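Mpp7 is a gene of 279 kb on mouse chromosome 18 (7347962 to 7626889, mm10 coordinates), and its accessible sites were followed peak by peak in regulatory T cells (Treg cells) that lack Opa1. The members were the peaks that touch Mpp7 or lie within 100 kb of it with Mpp7 as the nearest protein-coding gene, which gave 6 of the 50213 peaks measured. The locus was chosen because one of its peaks was called lower in Opa1 KO cells, so every KO against WT value of these 6 peaks is a description, given without a p-value. Where a peak is said to be past the threshold of the fit over the whole table, that only records how the locus was chosen or how the fits differ, and it is not evidence of a change. The peaks are numbered 1 to 6 from the lower to the higher coordinate.

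The accessibility data are ATAC-seq counts: a transposase inserts sequencing adapters where the DNA is open, and the reads from those insertions are counted in each peak. The 3 Opa1 KO libraries came from spleen Treg cells with floxed Opa1 and Foxp3-Cre, so Cre removes Opa1 in cells that express Foxp3. The 4 WT libraries came from Treg cells with Foxp3-Cre and no floxed allele. In both groups the host was a chimera rebuilt with equal parts of this CD45.2+ marrow and of CD45.1+ marrow. The sorted cells were CD45.2+, CD45.1-, CD4+ and positive for the Foxp3-YFP reporter, so both groups carry the reporter and Cre, and each library came from a chimeric mouse of its own, per the labels. The labels do not state the age or sex of the mice, nor which exons of Opa1 Cre removes.

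Mpp7 encodes a scaffold protein of the membrane-associated guanylate kinase (MAGUK) p55 family, whose members hold other proteins together at the cell cortex through L27, PDZ, SH3 and guanylate kinase-like domains. In human epithelial cells the protein joins DLG1 and LIN7 proteins in a complex that helps set up cell junctions and polarity. Opa1, the deleted gene, encodes a mitochondrial GTPase needed to fuse inner membranes and to keep cristae folded. An accessible site inside or near a gene may be a promoter, an enhancer or a site bound by other factors, and ATAC-seq does not tell these apart.

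KO libraries held 1658436 to 3384325 counts in peaks, with KO replicate 1 the deepest, and WT libraries held 1534394 to 2134586. Most counts were even, 78.0% to 86.3% of peaks per library, which is what counting both mates of a read pair gives, so the number of fragments is near 1 for every 2 counts. The 6 Mpp7 peaks held 333 to 642 counts per KO library and 465 to 628 per WT library. Levels are given as CPM, the counts of a peak after scaling every library to the same total. Between WT replicates 2 and 3 the counts differed by less than could be told from the noise of sampling read pairs, with a chi-square of 1.004 per degree of freedom over 33169 peaks. So small a difference does not show that these libraries depend on each other, and the labels give them separate mice. WT replicates 3 and 4 were nearly as close, at 1.017 over 35688 peaks. Averaging WT replicates 2 and 3 into 1 value was thus a choice taken from the counts, and it sets every WT mean and SD below. Means ± SD have n = 3 in both groups for this reason, while the fits kept all 7 libraries. All T cell and Treg markers fixed for the check had peaks. The Treg list (Foxp3, Il2ra, Ctla4, Ikzf2, Il2rb) summed to 1562 ± 50.5 CPM in KO and 1551 ± 27.2 CPM in WT. Averaging WT replicates 2 and 3 narrowed some WT SDs and widened others. Over the 4 WT libraries the SD of the Treg list was 55.9 CPM, and that of Mpp7 peak 5 was 8.37 CPM instead of 10.2 CPM. Csf1r and Lyz2 of the myeloid list and Ncr1 of the natural killer list had no peak. The other 3 myeloid and 2 natural killer markers had peaks, so these lists do not show that such cells were absent. The natural killer list summed to 160 to 167 CPM in the KO libraries and 123 to 169 CPM in the WT libraries. Per listed marker its KO mean was 54.3 CPM, beside 56.4 CPM for the T cell list. The tested Opa1 peak had 35.0 ± 6.93 CPM in KO and 36.8 ± 1.17 CPM in WT, and since it covers only an end of the gene it does not check the deletion.

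Every Mpp7 peak had a lower mean in KO than in WT, at the 5 sites that touch the gene and at the site beyond it. Peak 3 had too few counts to pass the count filter, and the other 5 were part of the fit over the whole table. The KO libraries lay below the WT libraries without overlap at 4 of these 5 peaks, the exception being peak 2, and at 4.51% of all 38041 tested peaks. They did so at peak 3 as well, which that percentage does not cover. Peak 4 alone was past the threshold (edgeR, Benjamini-Hochberg adjusted p under 0.05), where 0.0867% of all tested peaks were called and 0.0394% were called lower. The log2 fold changes (KO over WT) of the 5 tested peaks ran from -1.18 to -0.41 with a median of -0.60, beside a median of -0.00099 over all tested peaks, of which 50.2% were below 0. Nothing is read from these counts, because the locus was picked from the same contrast. In a bulk library, fewer cells with an open site and a less open site in each cell cannot be told apart.

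**Figure D1:**
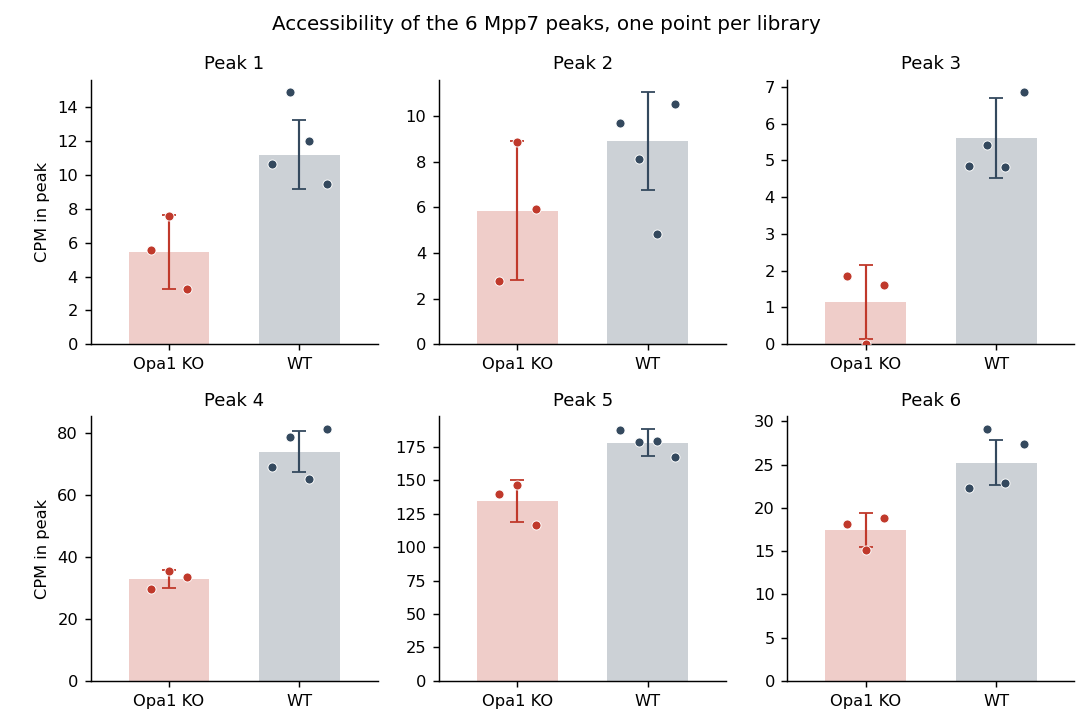
Accessibility in CPM (vertical axes, from 0, each panel on its own scale) of Mpp7 peaks 1 to 6 in Opa1 KO and WT Treg cells. Points are libraries, bars are means and error bars are SD (n = 3 in both groups, WT replicates 2 and 3 averaged). The KO points lie below all WT points except at peak 2, where KO replicate 2 with 8.85 CPM is above WT replicates 2 and 3 and KO replicate 3 is above WT replicate 3.

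Peak 4 (chromosome 18, 7608818 to 7609449, 631 bp) is the peak that brought the locus to notice. It lies within the gene, 17.4 kb from the gene's end at the higher coordinate. The gene table gives neither strand nor exons, so whether it is intronic or exonic is not stated here. Its counts were 96, 56 and 62 in KO replicates 1 to 3, against 142, 116, 108 and 154 in WT replicates 1 to 4. KO replicate 1, the deepest library of all, thus had fewer counts in this peak than any WT library. After scaling, peak 4 had 29.6, 35.4 and 33.4 CPM in the KO libraries, against 68.8, 78.5, 65.0 and 81.1 CPM in the WT libraries. The highest KO library was 29.6 CPM below the lowest WT library, and the KO libraries spanned 5.81 CPM. The mean was 32.8 ± 2.96 CPM in KO and 73.9 ± 6.45 CPM in WT (SD, n = 3 each), a log2 fold change of -1.18 (SE 0.16).

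Peak 5 (7626542 to 7627286, 744 bp) covers the end of Mpp7 at the higher coordinate and was the most accessible site of the locus. Its mean level exceeded that of 99.0% of all peaks in the table. It had 140, 147 and 116 CPM in KO replicates 1 to 3, against 188, 179, 179 and 168 CPM in WT replicates 1 to 4. All KO libraries were below all WT libraries, with KO replicate 3 the lowest. The mean was 134 ± 15.8 CPM in KO and 178 ± 10.2 CPM in WT (SD, n = 3 each), and the log2 fold change was -0.41 (SE 0.10). Peak 5 was not past the threshold, and its side of it depended on the analysis, since it was called, for example, with DESeq2, with limma-voom and with total counts as the only scaling. Without KO replicate 3 its log2 fold change was -0.31 (SE 0.11).

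Peaks 4 and 5 lie 17.1 kb apart, and the ratio of their counts within a library does not depend on scaling between libraries. That ratio was 0.211, 0.241 and 0.287 in KO replicates 1 to 3, against 0.366, 0.439, 0.362 and 0.484 in WT replicates 1 to 4. The highest KO ratio was below the lowest WT ratio. Both peaks were lower in KO and peak 4 by the larger factor, but the locus was chosen for the difference at peak 4, so nothing is read from this. Measured in CPM, the KO minus WT difference of the means was -41.1 at peak 4 and -43.9 at peak 5. The smaller fold change at peak 5 thus stands for about as many counts as the larger one at peak 4.

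Peak 1 (7404757 to 7405237, 480 bp) and peak 2 (7410214 to 7410518, 304 bp) lie 4.98 kb apart, deep in the gene, more than 216 kb from peak 5's end of it. Peak 1 had 5.55, 7.58 and 3.24 CPM in KO replicates 1 to 3, against 10.7, 14.9, 12.0 and 9.48 CPM in WT replicates 1 to 4. The groups did not overlap, with 36 counts over the 3 KO libraries and 82 over the 4 WT libraries. The log2 fold change was -1.10 (SE 0.40), close to that of peak 4 with an SE 2.51 times as wide. Peak 2 had 2.77, 8.85 and 5.93 CPM in the KO libraries, against 9.69, 8.12, 4.82 and 10.5 CPM in the WT libraries. Here the groups overlapped, and the log2 fold change of -0.60 had an SE of 0.45. Without KO replicate 1, the library with the lowest value, it was -0.18. Without KO replicate 2, the highest KO library, it was -1.003, so its size moved in both directions with single libraries.

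Peak 3 (7565465 to 7565723, 258 bp), also within the gene, was the weakest of the locus. Its counts were 6, 0 and 3 in KO replicates 1 to 3, against 10, 8, 8 and 13 in WT replicates 1 to 4. KO replicate 2 had no count, which allows up to 3.79 CPM (3 read pairs, counting error only). In CPM the KO libraries had 1.85, 0 and 1.62, against 4.84, 5.42, 4.82 and 6.85 in the WT libraries. The groups did not overlap, and the pooled KO over WT ratio was 0.213 with an exact 95% counting interval of 0.0528 to 0.634 from 4 and 20 read pairs. These pairs were rounded from 9 KO and 39 WT counts, down in KO and up in WT, which lowered the ratio and its interval. The ratio of peak 3 was the lowest of the 6 peaks, and its interval also holds the ratio of peak 4, 0.437.

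Peak 6 (7692871 to 7693262, 391 bp) lies 66.0 kb outside the gene, beyond the end that peak 5 covers, and is the only member that does not touch Mpp7. It had 18.2, 15.2 and 18.9 CPM in KO replicates 1 to 3, against 22.3, 29.1, 22.9 and 27.4 CPM in WT replicates 1 to 4. The groups did not overlap, by a margin of 3.41 CPM. The mean was 17.4 ± 1.97 CPM in KO and 25.2 ± 2.64 CPM in WT (SD, n = 3 each), with a log2 fold change of -0.53 (SE 0.24). The next peak outward, 130 kb from the gene (7756822 to 7757116), falls just outside the 100 kb limit and has no protein-coding gene within that distance. It had 3.70, 2.53 and 2.16 CPM in KO replicates 1 to 3, against 6.78, 4.06, 8.43 and 6.32 CPM in WT replicates 1 to 4. The highest KO library was just below the lowest WT library, and the log2 fold change was -1.13 (SE 0.57).

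Per kb of peak, peak 5 held 181 CPM in KO and 240 CPM in WT, and peak 4 held 52.0 CPM in KO and 117 CPM in WT. Peak 6 followed with 44.5 CPM per kb in KO and 64.5 CPM per kb in WT. The order of these 3 peaks was the same in both groups, but the gap between peaks 4 and 6 was narrow in KO and wide in WT. The other 3 peaks lay between 4.48 and 19.2 CPM per kb in KO and between 21.7 and 29.3 CPM per kb in WT.

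Summed over the 6 peaks, the locus had 198, 214 and 180 CPM in KO replicates 1 to 3, against 304, 315, 289 and 303 CPM in WT replicates 1 to 4. The lowest WT library stood above the highest KO library by more than the whole range of the KO libraries. The mean was 197 ± 17.0 CPM in KO (SD, n = 3) and 303 ± 1.16 CPM in WT (SD, n = 3), a log2 ratio of -0.62. The WT SD is narrow because WT replicates 2 and 3, the highest and lowest, were averaged, and over the 4 WT libraries it was 10.6 CPM. Peaks 4 and 5 made up 38.8% and 41.4% of the difference in CPM. Without peak 4 the sum was 168, 178 and 146 CPM in KO replicates 1 to 3, against 235, 236, 224 and 222 CPM in WT replicates 1 to 4, and the log2 ratio was -0.48. Without peaks 4 and 5, the other 4 peaks summed to 29.9 ± 1.64 CPM in KO and 50.9 ± 3.40 CPM in WT, a log2 ratio of -0.77.

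**Figure D2:**
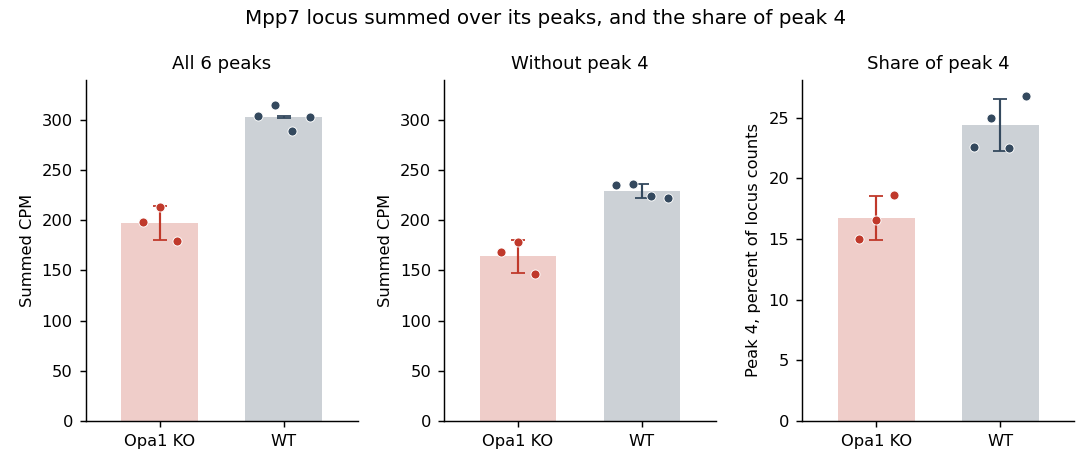
Summed CPM over all 6 Mpp7 peaks (left), over the 5 peaks other than peak 4 (middle), and peak 4 as a percentage of the counts of the 6 peaks (right), with all axes from 0. Points are libraries, bars are means and error bars are SD (n = 3 in both groups, WT replicates 2 and 3 averaged, which makes the WT bar of the left panel narrower than the spread of its points). In each panel the KO points lie to one side of the WT points, with sums of 180 to 214 CPM in KO and 289 to 315 CPM in WT.

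Shares within the locus do not depend on scaling, but the locus was chosen for its difference at peak 4, so they are a description too. Peak 4 held 14.95%, 16.6% and 18.6% of the locus counts in KO replicates 1 to 3, against 22.6%, 24.9%, 22.5% and 26.8% in WT replicates 1 to 4. The groups did not overlap, and the mean share was 16.7 ± 1.84% in KO and 24.4 ± 2.16% in WT (SD, n = 3 each), a difference of -7.66 percentage points. Single libraries carry wide intervals at this depth. The exact Clopper-Pearson 95% interval ran from 11.2% to 19.3% in KO replicate 1 (48 of 321 read pairs) and from 13.1% to 25.4% in KO replicate 3 (31 of 166), against 17.4% to 28.3% in WT replicate 3 (54 of 240) and 21.7% to 32.2% in WT replicate 4 (77 of 288). The intervals of KO replicate 3 and WT replicate 3 overlapped, and those of KO replicate 1 and WT replicate 4 did not. Peak 5, the largest part of the remainder, held 68.1 ± 2.97% in KO and 58.8 ± 3.28% in WT. Peaks 1, 2 and 6 had shares that overlapped between the groups.

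Around Mpp7 the values did not all lie on the same side. The genes Armc4 and Mkx, the nearest on the lower-coordinate side, had no peak, so the closest measured site there was 583 kb away at an end of Rab18, a small GTPase of vesicle traffic. That peak (6764760 to 6765332) had 123 ± 7.33 CPM in KO and 106 ± 5.00 CPM in WT, with a log2 fold change of 0.22 (SE 0.11). On the other side the nearest gene is Wac, an adaptor protein of histone ubiquitination and autophagy, 242 kb away. Its peak at the near end of the gene (7868291 to 7869382) had 69.6 to 98.2 CPM in the KO libraries and 52.8 to 78.0 CPM in the WT libraries, which overlapped, and a log2 fold change of 0.34 (SE 0.14). Its other tested peak, 278 kb from Mpp7, had a log2 fold change of -0.44 (SE 0.40). Epc1, a subunit of the NuA4 histone acetyltransferase complex, had 8 tested peaks, of which 2 were below 0. In all, 16 other peaks lay within 1 Mb of Mpp7 and 12 were tested. EdgeR, DESeq2 and limma-voom called none of them, 4 had a log2 fold change below 0 and the median was 0.17. An unadjusted p under 0.05 in edgeR was reached by 3, all higher in KO. They were 1 peak of Epc1 (log2 fold change 0.48) and those named at Rab18 and at the near end of Wac. Within 5 Mb, 0 of 111 tested peaks were called by edgeR, 14 had an unadjusted p under 0.05 and the median was -0.05. Of these 111 peaks, 69 had a log2 fold change below 0, as had 655 of 1181 tested peaks on chromosome 18, members left out. Over all tested peaks 0.0867% were called, 9.47% had an unadjusted p under 0.05 and 50.2% were below 0. With so low a share called, 0 calls among the peaks within 1 Mb or 5 Mb says little. No test of Mpp7 against its surroundings was made.

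**Figure D3:**
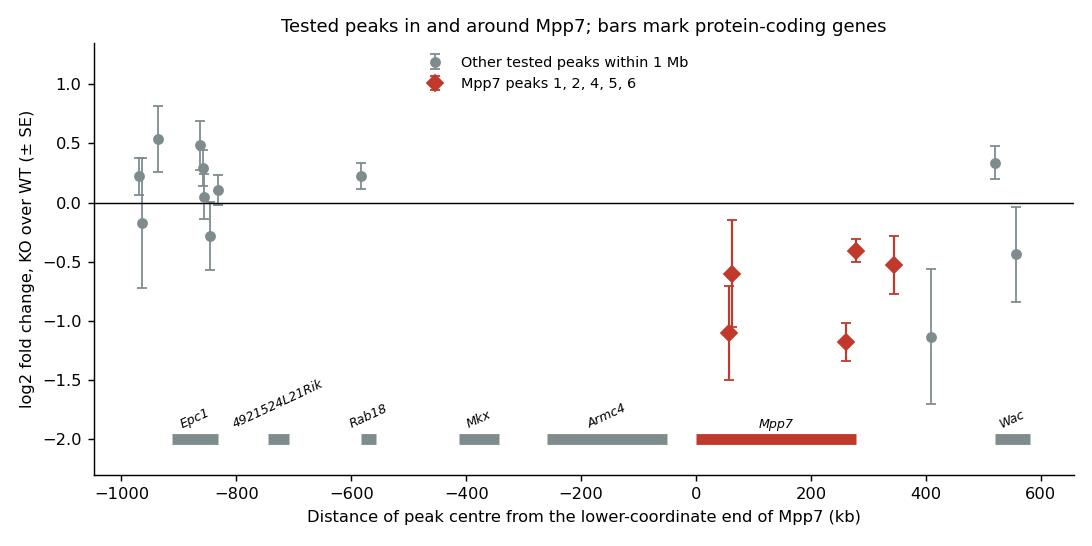
Log2 fold change (KO over WT, points, with SE as error bars) of each tested peak within 1 Mb of Mpp7, against the distance of the peak centre from the lower-coordinate end of the gene in kb. Diamonds are Mpp7 peaks 1, 2, 4, 5 and 6, circles are the 12 other tested peaks, and the bars at the bottom are protein-coding genes drawn to scale. The diamonds and the circle next to them lie between -1.18 and -0.41, and the peaks at Rab18 and at the near end of Wac lie above 0.

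Other genes of the family and of the polarity scaffolds that MPP proteins bind or resemble were measured in the same fit. In 6 groups of 30 genes, 26 genes had a tested peak, and edgeR called 0 of their 72 tested peaks. DESeq2 and limma-voom called none either. As edgeR called only 0.0867% of all tested peaks, 0 of 72 says little about these genes. An unadjusted p under 0.05 was reached by 13 of the 72 peaks (9.47% of all tested peaks reached it). Their log2 fold changes had a median of 0.0035, with 35 of the 72 below 0. In the MAGUK p55 family, 6 of 17 peaks were below 0. The strongest peak of Mpp2 had the smallest adjusted p of the family, with 11.8 ± 2.96 CPM in KO and 18.2 ± 6.22 CPM in WT, overlapping libraries and a log2 fold change of -0.75 (SE 0.30, edgeR adjusted p = 0.403). That of Mpp4 stood at -0.56 (SE 0.41). The strongest peak of Mpp5, which encodes the Crumbs partner PALS1, had 146 ± 8.65 CPM in KO and 124 ± 14.04 CPM in WT (log2 fold change 0.19, SE 0.10, edgeR adjusted p = 0.569). The log2 fold change was 0.24 (SE 0.23) at the strongest peak of Mpp1, 0.11 (SE 0.22) at that of Mpp6 and -0.11 (SE 0.22) at that of Cask, a scaffold best known at synapses. Of the 8 tested peaks of Cask, 2 were below 0. No peak was assigned to Mpp3.

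Among the partners, the strongest peak of Dlg1, a scaffold that also acts in T cell receptor signalling, had 40.6 ± 0.675 CPM in KO and 33.1 ± 5.13 CPM in WT (log2 fold change 0.28, SE 0.19, edgeR adjusted p = 0.676). That of Dlg4, with the smallest adjusted p of the Dlg group, had 34.3 ± 6.35 CPM in KO and 46.3 ± 7.65 CPM in WT (log2 fold change -0.37, SE 0.18, edgeR adjusted p = 0.527). Dlg2 and Dlg3 stood at -0.02 (SE 0.10) and -0.29 (SE 0.22). In the Lin7 group the log2 fold change was 0.41 (SE 0.29) at Lin7b and -0.09 (SE 0.16) at the strongest peak of Lin7c. In the Crumbs group, Crb1 had the smallest adjusted p, with 5.33 ± 4.40 CPM in KO and 11.3 ± 2.15 CPM in WT at its strongest peak (log2 fold change -0.92, SE 0.43, edgeR adjusted p = 0.496). Those of Patj, a PDZ scaffold, and of Crb2 stood at 0.14 (SE 0.11) and 0.30 (SE 0.33).

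All 3 peaks of the Scribble group were above 0 and none was called. The peak at Scrib, whose protein marks the basolateral side of epithelial cells, had 35.3 ± 7.68 CPM in KO and 20.2 ± 4.28 CPM in WT (log2 fold change 0.76, SE 0.23, edgeR adjusted p = 0.21), the smallest adjusted p of the 6 groups. The libraries overlapped at this peak, with 27.8 to 43.1 CPM in KO and 15.5 to 29.8 CPM in WT. Llgl1 and Llgl2 stood at 0.49 (SE 0.23) and 0.22 (SE 0.29). In the Par group 17 of 29 peaks were below 0, and at 5 of the 29 all KO libraries lay below all WT libraries. The same held at 6 of the 72 peaks of all 6 groups and at 4.51% of all tested peaks. The Par group was not tested against that share. The atypical protein kinase C genes Prkcz and Prkci pointed in opposite directions at their strongest peaks, though 2 of the 3 tested Prkci peaks were below 0. Prkcz had 13.5 ± 1.65 CPM in KO and 18.02 ± 2.27 CPM in WT, without overlap (log2 fold change -0.41, SE 0.28), and Prkci had 48.3 ± 3.48 CPM in KO and 41.7 ± 1.21 CPM in WT, also without overlap (0.22, SE 0.17). The strongest peaks of the other Par genes, among them Cdc42, the small GTPase of polarity (0.10, SE 0.15), had log2 fold changes from -0.24 at Pard6a to 0.42 at Pard3.

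The peaks most like peak 4 across the 7 libraries were found by the root mean square difference of centred log2(CPM + 1) values, as a description with no test. Peak 4 was chosen for its lower KO level, so peaks picked as most like it share that by selection. They also lie far below the median difference by construction. The closest was a peak 21414 bp from Bhlhe40, a transcription factor of activated T cells, at 0.12, where the median over all tested peaks was 0.66. It had 30.8, 29.1 and 31.3 CPM in KO replicates 1 to 3, against 61.0, 69.0, 51.8 and 67.4 CPM in WT replicates 1 to 4. The next were peaks assigned to Drd3, Acss1, Nrip1 and L3mbtl3, at 0.16 in each case. Their means lay between 2.38 and 13.4 CPM in KO and between 6.63 and 33.1 CPM in WT. Peak 5 of Mpp7 itself stood at 0.40 from peak 4.

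Markers of other cell types were set beside these values. The myeloid list, with 3 of its 5 markers at a peak, summed to 43.6 to 54.5 CPM in the KO libraries and 56.2 to 63.0 CPM in the WT libraries, without overlap. The summed levels of the natural killer, CD8 T cell and erythroid lists overlapped between the groups. The CD8 T cell list had 44.7 to 65.3 CPM in the KO libraries and 45.8 to 63.0 CPM in the WT libraries. The erythroid list had 45.8 to 61.9 CPM in KO and 31.3 to 49.5 CPM in WT. The part of the myeloid signal in the Mpp7 values was not tested.

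**Figure D4:**
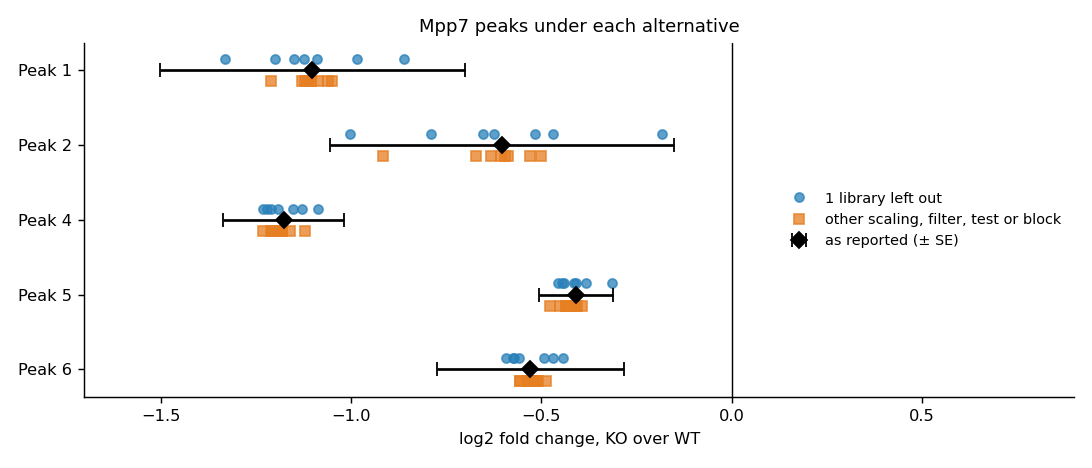
Log2 fold change (KO over WT, horizontal axis) of the 5 tested Mpp7 peaks as reported (diamonds, with SE), with 1 library left out (circles) and under another scaling, filter, test or block (squares). Every symbol lies below 0, peak 4 stays between -1.23 and -1.09, and peak 2 ranges from -1.003 to -0.18.

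Leaving out 1 library at a time, or changing the scaling, the filter or the test, gave log2 fold changes below 0 for each of the 5 tested Mpp7 peaks in every fit that held it. They ranged from -1.23 to -1.09 at peak 4, from -0.48 to -0.31 at peak 5, from -0.59 to -0.44 at peak 6 and from -1.33 to -0.86 at peak 1. These refits reuse the libraries that chose the locus, so they describe how the values move with the processing and are no further evidence of a difference.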

How the data were processed

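ATAC-seq counts of 3 Opa1 KO and 4 WT libraries were analysed. The authors deposited whole-number counts per peak over 1 interval set, not normalized. Per the submitters' processing notes, the build was mm10 and the tools were MACS2 2.1.1, bedtools 2.25.0, SAMtools 1.9, Picard 2.9.4, BWA 0.7.16 and Trimmomatic 0.36. No source used here gives their settings, the merging of peaks or any transposase shift of reads, so peak edges may move by a few bases. Positions are as deposited, with no statement of whether starts count from 0 or 1.

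Peaks were assigned to the protein-coding gene they touch in a RefSeq GRCm38.p6 gene table, or otherwise to the nearest within 100 kb. All peaks were fitted with edgeR 4.0.16 (R 4.3.3; robust quasi-likelihood test) with genotype alone in the model and TMM scaling. A count filter (filterByExpr, set to a minimum of 10 and a total of 15) left 38041 peaks, over which p-values were adjusted by Benjamini-Hochberg. SE is the size of the log2 fold change over the root of the F statistic. Alternatives included DESeq2 1.42.0, limma-voom (limma 3.58.1), other scalings and filters, halved counts and leaving out libraries. The procedure was run on simulated data with known changes placed in peaks of higher counts. That run does not cover the low counts of Mpp7 peaks 1 to 3, and it did not draw counts in pairs. Other steps used Python 3.11.15, SciPy 1.17.1, pandas 2.3.3, NumPy 2.4.6 and matplotlib 3.10.9. Counting intervals and floors take 2 counts as 1 read pair and cover counting error only, because amplified reads carry no molecular identifiers.

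The members, gene lists and rules were chosen with earlier results of these data known. Named genes are every Mpp7 peak, the strongest peak of each listed polarity gene (5 Par genes as a range), the nearest 2 genes on each side within 1 Mb, and the 5 genes whose peak is most like peak 4. Rab18, Epc1 and the peak 130 kb from Mpp7 fall outside that rule and were named after their values were seen. One of the marker lists is not reported here. No sequence is printed.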

Additional observations from a re-analysis of the deposited data

How the results depend on the processing

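The number of called peaks over the whole table was 33, and it was 77 with counts halved, 60 among peaks averaging 20 counts or more, 55 with limma-voom and 17 with the replicate number as a block (replicates 1 to 3 of both groups). With 1 library left out it ranged from 15 to 43, the low values being 15 (KO replicate 1 left out), 16 (KO replicate 3) and 18 (WT replicate 1). The number of Mpp7 peaks past the threshold was 1 and became 2, with peak 5 added, under DESeq2, limma-voom, loess offsets, counts halved, a mean count of at least 20 and total counts as the only scaling. It was 1 in each fit with 1 library left out.

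The log2 ratio of the locus sum was -0.62. It was -0.48 without peak 4 and, in an alternative chosen after seeing the data, -0.77 without peaks 4 and 5, differences that follow from which peaks are summed. With 1 library left out it ranged from -0.68 to -0.55, and with the replicate block it was -0.63. The loess value leaves out peak 3, which did not pass the filter. The peak 4 share differed by -8.61 to -6.45 percentage points with 1 library left out and by -8.23 over the touching peaks alone. The deviations of same-numbered KO and WT libraries had correlations across peaks of 0.01, -0.01 and 0.00. Those of other KO and WT pairs ran from -0.04 to 0.03. At this depth much of such a deviation can be counting noise, so these values do not show whether same-numbered libraries were handled together. The labels do not say so either. No peak within 1 Mb of Mpp7 outside the locus, and none of the polarity lists, was called in any of the 17 alternatives. As reported, 0.0867% of all tested peaks were called, so 0 calls among so few peaks says little. Depth limits peaks 1 to 3, which had 9 to 36 counts over the KO libraries.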
